A study of Mus musculus with 6 samples.

Results

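The FGF ligands and receptors known from the developing cochlea were followed as a set of 10 genes, chosen by name: the ligands Fgf8, Fgf3, Fgf9, Fgf10, Fgf20 and Fgf21, and the receptors Fgfr1, Fgfr2, Fgfr3 and Fgfr4. All 10 were among the 23337 gene symbols counted, and 7 of them had enough counts to be tested, together with 11714 genes in all. RNA was taken at E18.5 from mouse cochlear outer hair cells of the organ of Corti, in 3 libraries labelled Insm1-KO and 3 labelled Insm1-Het. Cells of both genotypes were sorted as positive for Insm1-GFP-Cre, Insm1 being the gene of a zinc-finger transcription factor of nascent outer hair cells, and the comparison is with heterozygous cells, not with wild type. The labels name neither the deleted part of Insm1 nor the number of embryos behind a library, so the p-values speak for the spread among these libraries alone, and that spread may be technical.

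Fibroblast growth factors are secreted ligands that bind receptor tyrosine kinases together with heparan sulphate, and the activated receptor signals through the Ras and MAP kinase cascade to ETS factors and to inhibitors of the Sprouty family. In the cochlea, Fgf8 is made by inner hair cells and acts on Fgfr3 of neighbouring cells, which directs the development of pillar cells. Fgf20, through Fgfr1, acts earlier on the progenitors of hair cells and supporting cells. The series is about outer hair cells turning into inner hair cells without INSM1, and Fgf8 was read as the inner hair cell signal of the FGF set.

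Libraries held 7705177 to 9748629 counts in Insm1-KO and 10721902 to 12427039 counts in Insm1-Het. KO replicate 3 stood apart, with Pearson correlations of log2 CPM of at most 0.780 with any other library, against 0.787 to 0.841 for the pairs among the other 5 libraries. It held the highest value of 24.5% of all tested genes, more than any other library, and results that rest on it are given without it. Insm1 itself was at 78.5, 60.1 and 18.6 CPM in KO replicates 1, 2 and 3 and at 109.0, 115.9 and 69.1 CPM in Het replicates 1, 2 and 3, so the genotypes overlapped. The 10 general hair cell markers summed to 9699 to 11145 CPM in KO and 9810 to 10181 CPM in Het libraries. Among them Atoh1 lay higher in every KO library than in any Het library, as did 5.08% of all tested genes. Gfi1 and Lhx3 lay lower, as did 6.1% of all tested genes. None of these markers passed the threshold, and the other 7 overlapped. The 8 outer hair cell markers other than Insm1 summed to 606 to 685 CPM in KO and 609 to 754 CPM in Het libraries, so the sums overlapped. Among them Ocm had 15, 22 and 33 counts in KO replicates 1, 2 and 3 and 0 in each Het library. Fam40b lay lower in every KO library than in any Het library, at means of 201.1 CPM in KO and 281.1 CPM in Het. Ocm thus lay on the side of the 5.08% of all tested genes that were higher, and Fam40b on that of the 6.1% that were lower. Neither passed the threshold, and the other outer hair cell markers overlapped.

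Fgf8, on the minus strand of chromosome 19 (GRCm38, 45736798 to 45742915), was counted in 2 of 3 KO libraries and in 0 of 3 Het libraries. KO replicates 1, 2 and 3 had 87, 0 and 42 counts, or 9.26, 0 and 4.66 CPM, and each of the 3 Het libraries had 0 counts. A count of 0 allows up to 3 counts, which is 0.236 to 0.280 CPM in a Het library and 0.390 CPM in KO replicate 2. The genotypes therefore overlapped at 0 in KO replicate 2, while KO replicates 1 and 3 lay above every Het library. The KO mean of 4.64 CPM (SD 4.63, n = 3) was 55.2 times a floor of 3 counts over the Het group. This ratio describes the mean and not KO replicate 2. It leaves out the spread among libraries of either genotype, so it is no lower limit of the genotype difference. The mean was 2.33 CPM and the ratio 27.7 when KO replicate 1 was left out. Fgf8 stayed below the filter on low counts and was not in the main fit. A fit of all genes with no filter gave it an unadjusted p of 0.00528 and a Benjamini-Hochberg adjusted p of 0.311 by edgeR, with a fold change that depends on the prior count. The exact two-sided permutation test of its CPM gave p = 0.4, the smallest value these tied zeros allow, where 3 against 3 libraries without ties could reach 0.1.

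Few genes had this pattern in the table as a whole. The pattern is that of the Fgf8 counts themselves, so its share is a description and no test of Fgf8. Of the 15648 genes with any count, 17 (0.109%) had 0 counts in all Het libraries and at least 10 counts in 2 or more KO libraries. The outer hair cell marker Ocm, with 15, 22 and 33 counts in KO and 0 in each Het library, also had it. The mirrored pattern, absent from all KO libraries, was shown by 99 genes (0.633%). A zero beside a clear count within a genotype was seen for some of these FGF genes. In KO libraries Fgf8, Fgfr2 and Fgfr4 had 0 counts in 1 or more libraries and at least 30 in another, 3 of 10 members against 6.65% of the genes with any count. In Het libraries Fgf3, Fgfr2 and Fgfr4 did so, against 6.83% of the genes with any count. The limit of 30 counts was chosen after the values were seen, and the genes behind these shares were not matched to the members in level.

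The inner hair cell markers differed in which KO library was highest. Tbx2, a T-box factor that marks inner hair cells, gave 38, 147 and 45 counts in KO replicates 1, 2 and 3 against 2, 1 and 8 in Het replicates 1, 2 and 3, so it was highest in the KO library without Fgf8. Slc17a8, their vesicular glutamate transporter, gave 18, 0 and 0 counts in KO and 6, 0 and 15 counts in Het libraries. Brip1, a DNA helicase listed with the inner hair cell genes, gave 719, 675 and 3788 counts in KO and 6, 0 and 75 counts in Het libraries. Thus Slc17a8, like Fgf8, was highest in KO replicate 1, Brip1 in KO replicate 3 and Tbx2 in KO replicate 2. Summed over the 6 inner hair cell genes other than Fgf8, the level was 1100 to 1633 CPM in KO and 932 to 1210 CPM in Het. The sums overlapped, and Rprm, Nhlh1 and Otof made up most of them. These averaged 371.7, 319.8 and 477.9 CPM in KO and 209.0, 373.6 and 447.0 CPM in Het libraries. Tbx2, Brip1 and Rprm each lay higher in every KO library than in any Het library, as did 5.08% of all tested genes. None of them passed the threshold in the main fit, and Slc17a8, Nhlh1 and Otof overlapped. In these bulk libraries a few cells with much Fgf8 RNA and many cells with little cannot be told apart.

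**Figure D1:**
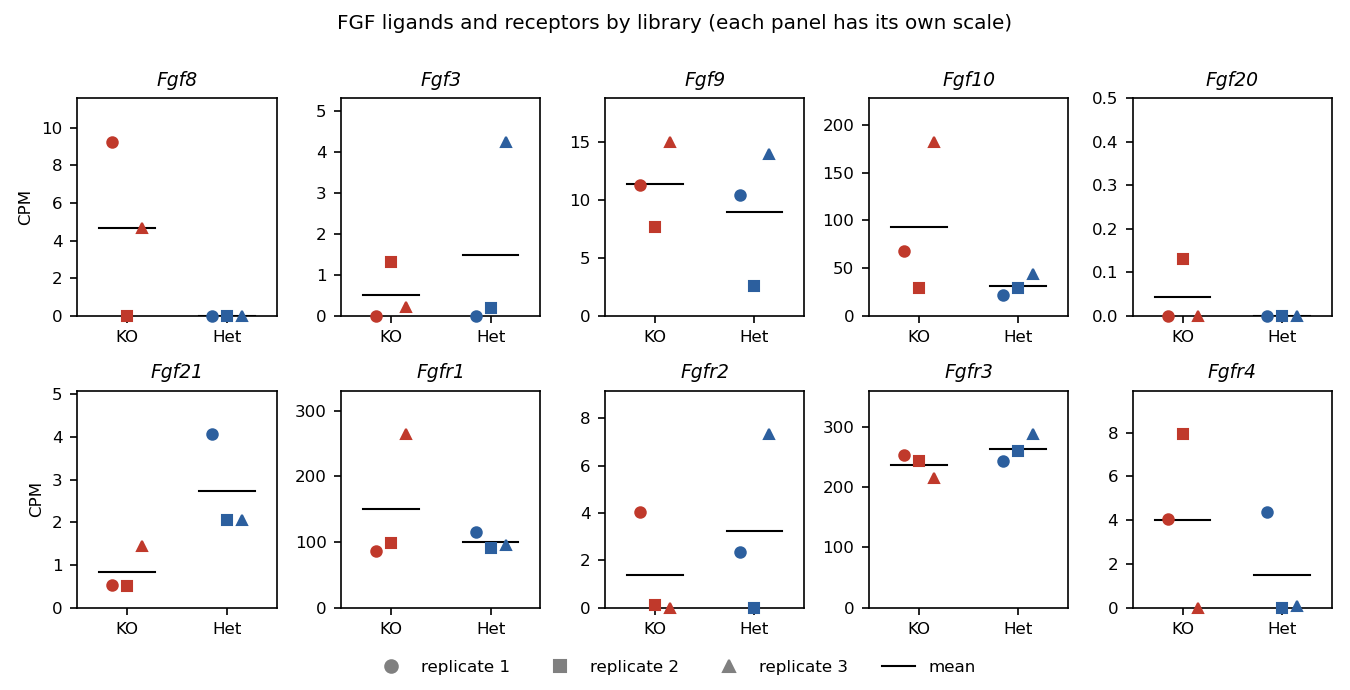
CPM of each of the 10 FGF ligands and receptors in the 3 KO (red, left) and 3 Het (blue, right) libraries, with the replicate number as the symbol and the group mean as a line. Fgf8 is above 0 in KO replicates 1 and 3 only, Fgf10 and Fgfr1 are highest in KO replicate 3, and Fgf21 is the 1 tested gene whose genotypes do not overlap.

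Fgf10, a ligand of otic development, lies on the plus strand of chromosome 13 (GRCm38, 118669791 to 118792115) and was the ligand with the highest level per kilobase. Its CPM was 68.3, 29.0 and 182.7 CPM in KO replicates 1, 2 and 3 and 21.4, 28.8 and 43.7 in Het replicates 1, 2 and 3. KO replicates 1 and 3 lay above every Het library and KO replicate 2 lay within the Het range. The means were 93.3 ± 79.8 CPM in KO and 31.3 ± 11.3 CPM in Het libraries (SD, n = 3 each), a log2 fold change of 1.58 (SE 0.60, 95% interval 0.28 to 2.87). By the quasi-likelihood test of edgeR the unadjusted p of Fgf10 was 0.0209 and its Benjamini-Hochberg adjusted p over all genes 0.92, so the difference did not pass. Leaving out KO replicate 3 gave 0.65, and the range over leaving out each library was 0.65 to 2.02. Markers of the greater epithelial ridge were at 2097, 2248 and 3568 CPM, summed over 10 genes, in KO replicates 1, 2 and 3 and at 2016, 2076 and 3316 CPM in Het replicates 1, 2 and 3. Within each genotype the library with the highest sum was also the library with the most Fgf10. The other KO libraries differed in order, since replicate 2 had the higher sum and replicate 1 more Fgf10. Ridge genes also differed among themselves. Tecta and Tectb were highest in replicate 3 of both genotypes, and Otoa was lowest there, at 0 CPM in KO and 0.55 CPM in Het. KO replicate 3 held the highest value of 24.5% of all tested genes. The part of the ridge genes in the Fgf10 values was not tested.

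Fgf9, a ligand of the inner ear epithelium, was at 11.3, 7.67 and 14.98 CPM in KO replicates 1, 2 and 3 and at 10.4, 2.52 and 13.95 CPM in Het replicates 1, 2 and 3. The values overlapped, and the log2 fold change was 0.34 (95% interval -1.81 to 2.48). Its direction turned without Het replicate 2, to -0.11.

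Fgf21, an endocrine ligand known from liver, on the minus strand of chromosome 7 (GRCm38, 45613886 to 45615490), was low, and it was the 1 tested gene of the set in which every KO library lay below every Het library. It had 5, 4 and 13 counts in KO replicates 1, 2 and 3 and 50, 22 and 26 counts in Het replicates 1, 2 and 3, or 0.832 ± 0.529 against 2.72 ± 1.16 CPM (SD, n = 3 each). Of all tested genes 6.1% had their KO libraries below their Het libraries, and 11.2% were without overlap in either direction, so 1 of 7 members is near that background. The log2 fold change was -1.69 (SE 1.68, 95% interval -5.30 to 1.91), with a Benjamini-Hochberg adjusted p of 0.979 by edgeR. The exact two-sided permutation test gave p = 0.1, the smallest value that 3 against 3 libraries allow. Klb, the co-receptor through which FGF21 acts, and the related Kl, both named after their values were seen, had 0 counts in all 6 libraries.

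Fgf3 was counted mainly in 1 library, and Fgf20 was close to undetected. Fgf3, a ligand of early otic induction, had 0, 10 and 2 counts in KO replicates 1, 2 and 3 and 0, 2 and 54 counts in Het replicates 1, 2 and 3, so most of its counts came from Het replicate 3. Fgf20 had 0, 1 and 0 counts in the KO libraries and 0 in each Het library, so both genotypes were at or under the floor of 3 counts. At this depth no difference in Fgf20 was detectable.

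Fgfr3, the receptor for FGF8 in pillar cells, lies on the plus strand of chromosome 5 (GRCm38, 33721674 to 33737068) and had the smallest SE of the tested members. Its mean level per kilobase of annotated exon was the highest of the set, but by coding length Fgf10 was higher in KO, at 148.8 against 98.5 CPM per kilobase. It was at 252.3, 242.9 and 215.5 CPM in KO replicates 1, 2 and 3 and at 243.1, 260.2 and 287.6 CPM in Het replicates 1, 2 and 3. The genotypes overlapped, since KO replicate 1 lay above Het replicate 1. Means of 236.9 ± 19.1 CPM in KO and 263.6 ± 22.5 CPM in Het libraries (SD, n = 3 each) gave a log2 fold change of -0.15 (SE 0.23, 95% interval -0.66 to 0.35). Exons of Fgfr3 share 998 bp with G630022F23Rik on the opposite strand, and without a stated strand setting reads of the pair cannot be told apart.

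Fgfr1, the receptor of the sensory progenitors, was at 86.6, 98.9 and 264.3 CPM in KO replicates 1, 2 and 3 and at 114.7, 90.7 and 96.2 CPM in Het replicates 1, 2 and 3. KO replicate 3 lay far above the other 5 libraries, which overlapped across genotypes. The log2 fold change was 0.58 (SE 0.41, 95% interval -0.31 to 1.46), and it was -0.11 when KO replicate 3 was left out, on the other side of 0.

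Fgfr2, the receptor of FGF10 in epithelia, had 38, 1 and 0 counts in KO replicates 1, 2 and 3 and 29, 0 and 93 counts in Het replicates 1, 2 and 3. Otor, a gene of cochlear mesenchyme named after its values were seen, was high in the same libraries, with 446, 8 and 0 counts in KO replicates 1, 2 and 3 and 21, 0 and 903 counts in Het replicates 1, 2 and 3. Col1a2, Col3a1, Coch and Pou3f4 were likewise highest in KO replicate 1 within KO and in Het replicate 3 within Het. Tbx18 was counted in Het replicate 3 alone. Pdgfra, Pdgfrb, Col1a1 and Vim ran differently. Pdgfrb was highest in KO replicate 3 and Col1a1 in Het replicate 2, both libraries with 0 counts of Fgfr2. The 12 mesenchymal markers summed to 439.9, 369.3 and 270.5 CPM in KO replicates 1, 2 and 3 and to 275.1, 357.5 and 514.3 CPM in Het replicates 1, 2 and 3. Pdgfra made up most of each sum, at 271.6, 333.4 and 174.8 CPM in KO and 224.7, 281.3 and 348.2 CPM in Het libraries. Twist1 and Twist2 were at 0 in all libraries. The part of the mesenchymal genes in the Fgfr2 values was not tested. Fgfr2 gave a log2 difference of -1.20 (SE 2.10), which was 0.24 when Het replicate 3 was left out. Part of its annotated exons, 314 bp, is also annotated to Ctbp2 on the same strand. Fgfr4, a receptor of muscle and liver, had 38, 61 and 0 counts in KO replicates 1, 2 and 3 and 54, 0 and 1 counts in Het replicates 1, 2 and 3. Its values overlapped, with a log2 fold change of 1.41 (SE 2.11) that was 6.21 when Het replicate 1 was left out and 0.44 when KO replicate 2 was.

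Per kilobase of annotated exon, Fgfr3 ranked first among the receptors in every library, at 33.1 ± 2.67 CPM per kilobase in KO and 36.8 ± 3.14 CPM per kilobase in Het libraries (SD, n = 3 each). By this length Fgfr1 came next in every library, at 15.2 ± 10.05 CPM per kilobase in KO and 10.2 ± 1.27 CPM per kilobase in Het libraries. In KO replicate 3 the order of Fgfr1 and Fgfr3 depended on the length: Fgfr1 was first by coding length, at 105.7 against 89.6 CPM per kilobase, and by the longest transcript, at 52.4 against 50.8 CPM per kilobase. Fgfr4 and Fgfr2 followed at 1.13 ± 1.12 and 0.135 ± 0.223 CPM per kilobase in KO, and at 0.420 ± 0.709 and 0.313 ± 0.362 CPM per kilobase in Het libraries, and their order changed between libraries. Fgf10 was the highest ligand per kilobase in all 6 libraries, at 20.3 ± 17.4 CPM per kilobase in KO and 6.80 ± 2.46 CPM per kilobase in Het libraries. The ligands below it (Fgf8 at 3.44 ± 3.43, Fgf9 at 2.43 ± 0.786 and Fgf21 at 0.875 ± 0.556 CPM per kilobase in KO, with 0, 1.93 ± 1.26 and 2.86 ± 1.22 CPM per kilobase in Het libraries) were low in all libraries, and Fgf8 spanned the range of both others in KO libraries. Fgfr3 made up 77.4%, 73.5% and 52.9% of the summed receptor level per kilobase in KO replicates 1, 2 and 3 and 72.2%, 79.8% and 79.3% in Het replicates 1, 2 and 3. The mean difference was -9.19 percentage points (exact two-sided permutation test, p = 0.3, where 3 against 3 libraries could reach 0.1). It was -1.70 points without KO replicate 3.

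**Figure D2:**
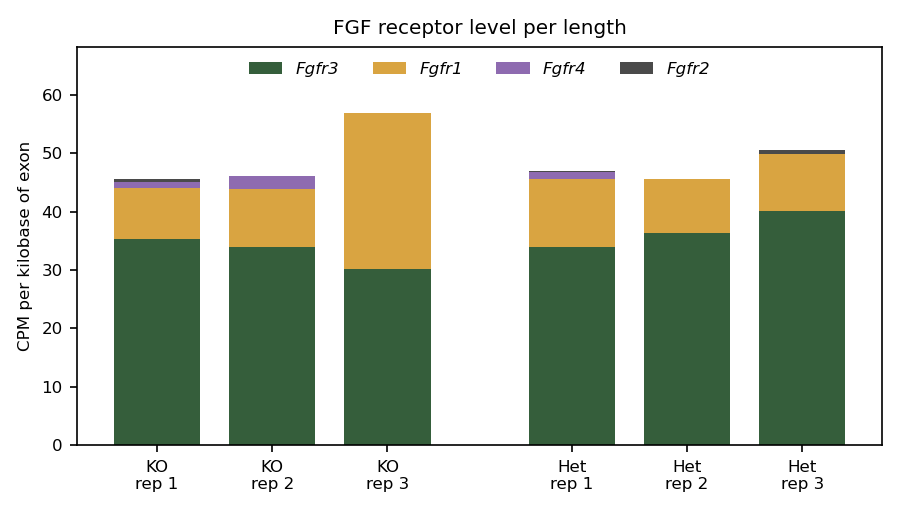
Level of the 4 FGF receptors in CPM per kilobase of annotated exon, stacked for each KO library (left) and each Het library (right). By this length Fgfr3 holds 52.9% to 77.4% of the bar in KO and 72.2% to 79.8% in Het libraries, and the bar of KO replicate 3 holds the most Fgfr1.

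None of the 7 tested members passed, and the same was true of every gene in the table. At a Benjamini-Hochberg adjusted p under 0.05 in the quasi-likelihood test of edgeR, 0 of 11714 genes (0%) were called, while 626 (5.34%) had an unadjusted p under 0.05. Fgf10 was the 1 member of 7 with an unadjusted p under 0.05, and it lay higher in KO, where 3.19% of all tested genes did so and 2.15% lay lower in KO at that p. DESeq2 called 26 genes and limma-voom called 0, and neither called a member. Of the members, 4 had a positive and 3 a negative log2 fold change, with a median of 0.34 beside 0.02 over all tested genes. The median size of the log2 fold change, whatever its sign, was 1.203 for the members and 0.44 over all tested genes. The member median is the value of Fgfr2 (SE 2.10), a gene with few counts. Fgf21 (SE 1.68) and Fgfr4 (SE 2.11), both above it in size, also had few counts, while Fgf10 (SE 0.60), likewise above it, had more. Fgfr1 and Fgfr3, with higher counts, were at 0.58 and -0.15. Fgf9, Fgf10 and Fgfr1, 3 of the 7 members, had their highest value in KO replicate 3.

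**Figure D3:**
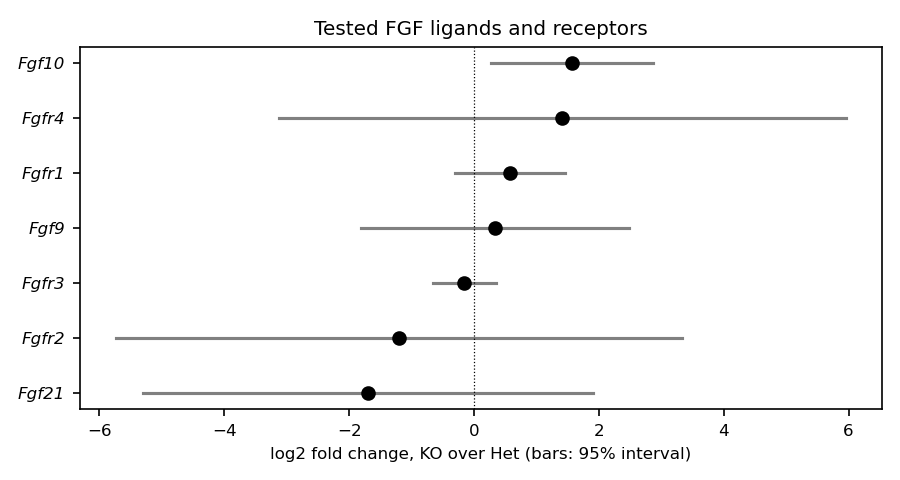
Log2 fold change, KO over Het, of the 7 tested FGF ligands and receptors, with 95% intervals from the quasi-likelihood fit. The intervals of Fgfr3 and Fgfr1 are the narrowest, that of Fgf10 (0.28 to 2.87) is the 1 interval that leaves out 0, and those of Fgfr2, Fgfr4 and Fgf21 span several log2 units.

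To show the sequence next to the start of genes that carry these results, the 250 bases before a RefSeq transcript start (GRCm38.p6) are given. They are those of the highest receptor and the highest ligand per kilobase and of the ligand without overlap. Capitals mark AGGGGG, the core of the sequence bound by INSM1, or its complement CCCCCT. Each reads 5′ to 3′ on the strand of the gene: Fgfr3 on the plus strand at chr5:33721474-33721723, Fgf10 on the plus strand at chr13:118714449-118714698 and Fgf21 on the minus strand at chr7:45615491-45615740.
Fgfr3: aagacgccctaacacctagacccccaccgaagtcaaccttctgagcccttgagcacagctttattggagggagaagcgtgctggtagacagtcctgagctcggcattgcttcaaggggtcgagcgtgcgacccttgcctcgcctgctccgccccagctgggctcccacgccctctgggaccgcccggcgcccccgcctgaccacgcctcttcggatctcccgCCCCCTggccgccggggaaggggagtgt
Fgf10: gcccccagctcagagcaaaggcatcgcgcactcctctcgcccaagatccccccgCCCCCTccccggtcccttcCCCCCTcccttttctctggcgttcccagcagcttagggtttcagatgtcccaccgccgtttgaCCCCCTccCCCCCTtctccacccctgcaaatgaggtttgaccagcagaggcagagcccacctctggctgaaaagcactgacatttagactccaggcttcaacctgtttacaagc
Fgf21: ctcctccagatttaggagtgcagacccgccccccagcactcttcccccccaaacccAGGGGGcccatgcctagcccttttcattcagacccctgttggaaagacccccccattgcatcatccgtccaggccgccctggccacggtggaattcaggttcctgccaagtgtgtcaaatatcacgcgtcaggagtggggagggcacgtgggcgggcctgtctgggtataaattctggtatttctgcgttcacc

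The RefSeq table held 8 starts for 7 of the 10 members, with no entry for Fgf8, Fgf20 and Fgfr1. The core AGGGGG, searched on both strands, lay in 6 of these 8 windows: it was found 4 times for Fgf10 and 1 time each for Fgfr3, Fgf21, Fgf3, Fgfr4 and Fgf9. Fgfr3 had 2 starts, and the core lay in the printed window of start 1 and not in that of start 2. The Fgfr2 window also lacked it. Over all 32851 windows of the same length it lay in 23.1%. The members' windows were richer in G and C, with a median of 60.4% against 52.4% over all windows. E-boxes (CANNTG), the sequence bound by ATOH1 and other bHLH factors, lay in 66.2% of all windows, and in 5 of the 8 member windows (62.5%), with 2 each for Fgf10, Fgf21 and Fgfr4. The T-box sequence GGTGTGA, searched on both strands, lay in 3.33% of all windows and in 0 of the 8. A match describes the letters and does not show a bound site.

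The rest of the pathway was followed in 5 lists with 66 genes, of which 65 were in the files, 11 had 0 counts in every library and 44 were tested. With edgeR and Benjamini-Hochberg adjustment 0 of the 44 passed, 3 (6.82%) had an unadjusted p under 0.05 against 5.34% of all tested genes, and DESeq2 and limma-voom also called 0. All 3, Flrt2 and Sos1 among them, lay higher in KO, and 3 genes, Flrt2 and Plcg1 among them, had every KO library above every Het library, 6.82% against 5.08% of all tested genes. Both shares are near the background. Plcg1, a phospholipase that FGF receptors activate, was named after its values were seen. The median log2 fold change of the 44 genes was 0.12, with 24 above and 20 below 0.

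Among the 12 other secreted ligands only Fgf1 was tested, and 7 (Fgf4, Fgf6, Fgf15, Fgf16, Fgf18, Fgf22 and Fgf23) had 0 counts in every library. Fgf1, which binds all FGF receptors, had 0, 17 and 155 counts in KO replicates 1, 2 and 3 and 105, 59 and 80 counts in Het replicates 1, 2 and 3, with a log2 fold change of -0.07 (SE 1.53). Fgf2 had 38, 75 and 0 counts in KO and 11, 1 and 0 counts in Het libraries, and Fgf5 had 34, 0 and 1 counts in KO and 10, 0 and 251 counts in Het libraries. Of the 4 intracellular FGF homologous factors, which bind sodium channels and not FGF receptors, Fgf11 was tested. It averaged 2.80 ± 2.80 CPM in KO and 7.74 ± 7.38 CPM in Het libraries (SD, n = 3 each), and the genotypes overlapped. Fgf13 had 39 counts in KO replicate 1 and 0 in the other 5 libraries, and Fgf14 had 16 counts in all KO and 22 in all Het libraries.

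Co-receptors and genes of heparan sulphate, 13 tested of 17, had a median log2 fold change of 0.19, with 8 above and 5 below 0. Flrt2, a transmembrane protein of a family that binds FGF receptors, was at 90.0, 58.1 and 146.2 CPM in KO replicates 1, 2 and 3 and at 33.9, 48.7 and 55.0 CPM in Het replicates 1, 2 and 3. Every KO library lay above every Het library, as in 5.08% of all tested genes, and the log2 fold change was 1.10 (SE 0.44), with a Benjamini-Hochberg adjusted p of 0.92 by edgeR. Ext2, a subunit of the heparan sulphate polymerase, was at 70.4, 682.9 and 27.9 CPM in KO replicates 1, 2 and 3 and at 86.2, 87.3 and 70.1 CPM in Het replicates 1, 2 and 3. Its high mean thus came from KO replicate 2 alone, while KO replicate 1 lay within the Het range and KO replicate 3 below it. Its partner Ext1 was at 187.7 ± 93.2 CPM in KO and 191.6 ± 43.5 CPM in Het libraries, and the sulphotransferase Hs2st1 at 167.0 ± 29.0 CPM in KO and 167.4 ± 26.9 CPM in Het libraries (SD, n = 3 each).

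Of the signal transducers, 17 of the 18 listed were in the files and all 17 were tested, with 7 above and 10 below 0 and a median log2 fold change of -0.09. Sos1, the exchange factor that loads Ras, was at 156.7, 190.7 and 307.8 CPM in KO and 102.0, 156.8 and 142.1 CPM in Het libraries, with a log2 fold change of 0.71 (SE 0.32) and an overlap between KO replicate 1 and Het replicate 2. Sos1 reached a Benjamini-Hochberg adjusted p of 0.92 by edgeR and was highest in KO replicate 3. Among the highest in CPM were Braf at 354.0 ± 54.4 CPM in KO and 440.9 ± 98.2 CPM in Het libraries and the adaptor Gab1 at 251.4 ± 60.2 CPM in KO and 259.6 ± 24.8 CPM in Het (SD, n = 3 each), both with overlapping ranges.

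Targets and feedback inhibitors of the pathway, 12 tested of 15, had a median log2 fold change of 0.35, with 9 above and 3 below 0, and 0 had an unadjusted p under 0.05. Highest in CPM were the ubiquitin ligase Cbl at 116.2 ± 18.0 CPM in KO and 101.2 ± 20.0 CPM in Het libraries, the ETS factor Etv1 at 90.7 ± 33.7 CPM in KO and 82.0 ± 24.4 CPM in Het, and the inhibitor Spry2 at 75.1 ± 15.8 CPM in KO and 78.6 ± 26.4 CPM in Het (SD, n = 3 each). Chosen after their values were seen, Spry1, Etv5, Spred3 and Dusp6 were the 4 of 12 (33.3%) with their highest value in KO replicate 3, against 24.5% of all tested genes. Spry1, a Sprouty inhibitor, was at 44.8, 2.73 and 117.4 CPM in KO replicates 1, 2 and 3 and at 10.2, 2.52 and 32.2 CPM in Het replicates 1, 2 and 3. Etv5, an ETS factor downstream of FGF receptors, was at 50.0, 52.8 and 160.9 CPM in KO and 16.8, 57.6 and 70.9 CPM in Het libraries. The order of the libraries in Spry1 was that of Fgf10 in KO, with replicate 3 highest and replicate 2 lowest, while in Het replicate 1 had the least Fgf10 and replicate 2 the least Spry1. Etv4, likewise named with its values known, had 7.24, 22.0 and 0 CPM in KO and 1.30, 0 and 0 CPM in Het libraries, and was absent from the KO library in which Etv5 was highest.

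**Figure D4:**
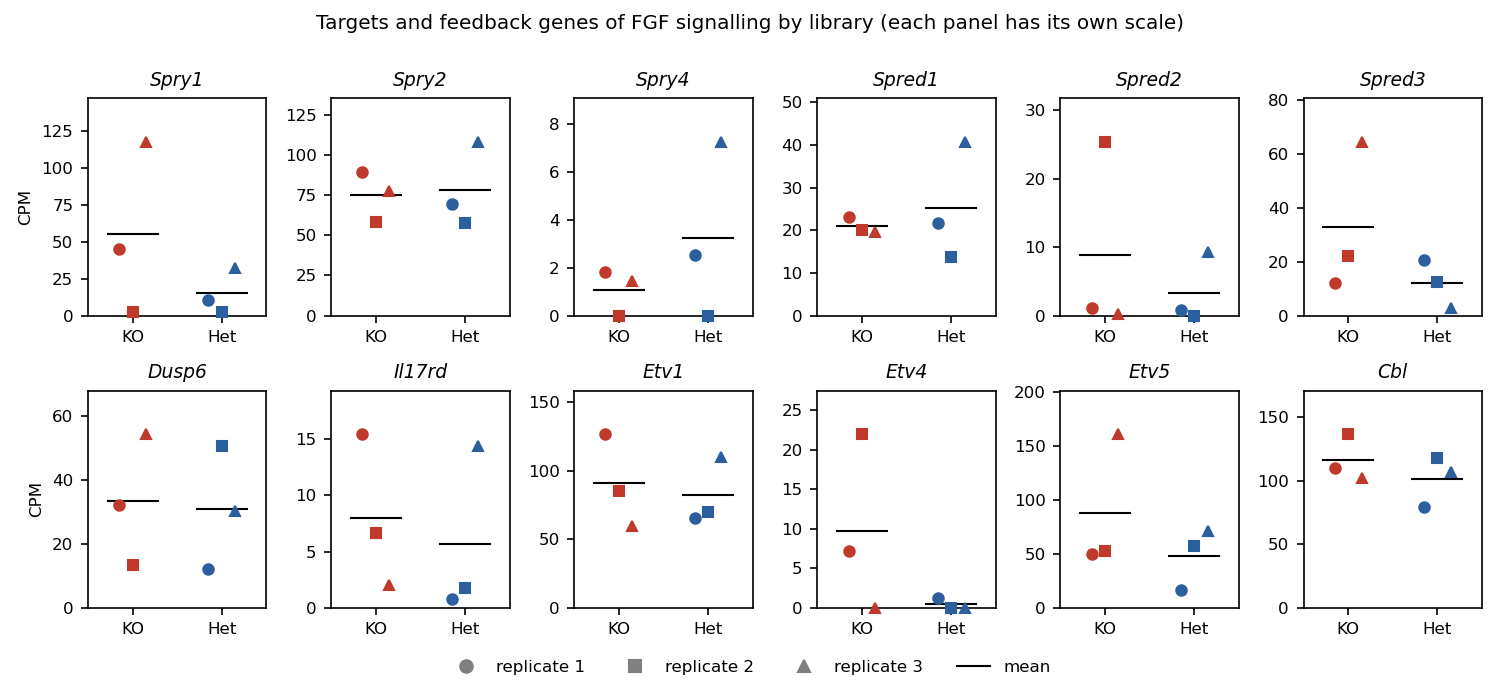
CPM of the 12 tested targets and feedback genes of FGF signalling in KO (red, left) and Het (blue, right) libraries, with the replicate number as the symbol and the group mean as a line. Spry1, Etv5, Spred3 and Dusp6 are highest in KO replicate 3, and the genotypes overlap in every panel.

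**Figure D5:**
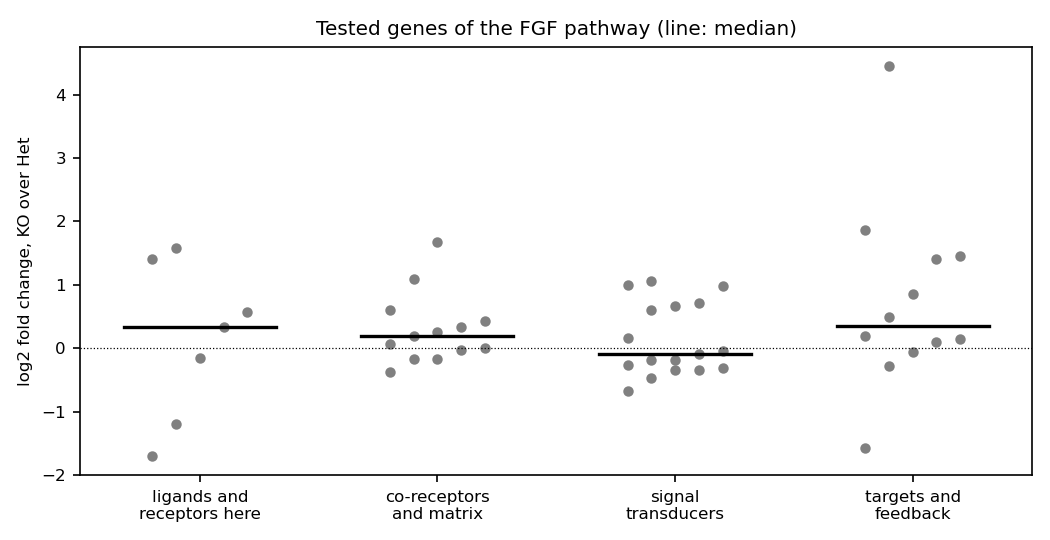
Log2 fold change, KO over Het, of each tested gene in the FGF set and in 3 pathway lists, with the list median as a line. The medians are 0.34 for the ligands and receptors, 0.19 for co-receptors and matrix, -0.09 for signal transducers and 0.35 for targets and feedback, and 0 genes shown passed the threshold.

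Genes with the profile most like that of Fgf8 over the 6 libraries, by Pearson correlation of log2 CPM among 10360 genes with a mean of at least 5 CPM, were 2310015B20Rik, Ctns, Vps35, Mpp2 and Prss8, with r of 0.983 to 0.995. With so few points such values were common: 64 genes had r over 0.9 with Fgf8 and 126 with Fgfr3. Mpp2 was at 148.9, 78.7 and 131.2 CPM in KO replicates 1, 2 and 3 and at 86.4, 82.2 and 74.1 CPM in Het replicates 1, 2 and 3, so KO replicate 2 lay with the Het libraries, as for Fgf8. The genes most like Fgfr3 were Cul9, Cox6c, Dck, Larp1b and Ttc4, with r of 0.988 to 0.994. Dck was at 51.3, 46.7 and 15.3 CPM in KO and 38.2, 70.6 and 127.7 CPM in Het libraries, with the lowest value in KO replicate 3 and the highest in Het replicate 3. The correlated profiles share the same 6 libraries and their depth, and are given as a description only.

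The supporting cell genes, of which Fgfr3 is a further marker, summed over 19 genes to 1809 to 2441 CPM in KO and 1516 to 1845 CPM in Het libraries, higher on average in KO, while Fgfr3 was lower on average in KO. The genes of this list did not move together. Gjb2 lay lower in every KO library than in any Het library, at means of 6.20 CPM in KO and 32.9 CPM in Het. Lfng, Npy and S100a1 lay higher in every KO library, and the others overlapped. Of all tested genes 6.1% lay lower in every KO library and 5.08% lay higher. None of the list passed the threshold. The part of the supporting cell genes in the Fgfr3 values was not tested.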

How the data were processed

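The authors deposited 1 file of raw read counts per gene symbol for each of the 6 libraries. Per the labels' protocols, ribosomal RNA was depleted and the RNA amplified from random hexamers before paired-end sequencing. Trimmomatic, STAR and HTSeq with GRCm38 (mm10) are named in the submitters' processing notes. Their versions, the annotation, the strand setting and the handling of multi-mapped reads: not given in the sources used here.

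The filterByExpr function, with genotype as group, at least 10 counts and a total of 15, removed genes with 0.274% of all counts, and the rest were scaled by TMM. KO was compared with Het by edgeR 4.0.16 (quasi-likelihood F test, Benjamini-Hochberg adjustment over 11714 genes, threshold 0.05). SE is the log2 fold change divided by the square root of F. CPM is the count over the library total times its TMM factor. Levels per kilobase use the union of exons in GENCODE M21 (GRCm38). Correlations used log2 CPM with a prior count of 2. The fit was tested on simulated data whose dispersion was capped, so that test does not cover the spread of these libraries. Amplified reads are not independent molecules, so floors cover counting error only.

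The members and the gene lists were chosen with earlier results of these data known. Named genes were the 10 members, Insm1, the 3 most abundant of each pathway list and those with an unadjusted p under 0.05, and the 5 genes most like Fgf8 and Fgfr3, and markers where their values stand beside a result; others are marked, and 2 genes that this rule names are not reported here. Alternatives were median-ratio and library-size scaling, no filter, at least 5 CPM in 3 libraries, DESeq2 1.42.0, limma-voom (limma 3.58.1), the newer form of edgeR's fit, the replicate block, other gene lengths and leaving out each library.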

Additional observations from a re-analysis of the deposited data

How the results depend on the processing

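Fgf10, Fgf21, Fgfr3 and Fgfr4 kept their direction and stayed past no threshold under every alternative that gave a value, as did the count of 0 members. Of the 14 alternatives, the filter at 5 CPM in 3 libraries gave no value for Fgf21, Fgfr2 and Fgfr4. Leaving out 1 library at a time moved the log2 fold change of Fgf9 between -0.11 and 0.81, of Fgfr1 between -0.11 and 0.85, of Fgfr2 between -5.44 and 0.24 of Fgfr4 between 0.44 and 6.21 and of Fgf10 between 0.65 and 2.02, and the Fgf8 difference between 2.33 and 6.96 CPM. Over all genes 67 passed with no filter, 26 under DESeq2 and 1 in the newer form of edgeR's fit. Of the pathway genes 1, Ext2, passed with no filter, where its KO mean rests on KO replicate 2. With the replicate block 1 gene passed over all genes, no member did, and the log2 fold change of Fgf10 was 1.27. Same-numbered KO and Het libraries had correlations of deviations of 0.0101, 0.0073 and 0.0144, within the range of -0.0274 to 0.0227 of the other pairs. These values show no pairing by replicate number over all genes and do not settle whether samples were paired. The cause of these shifts was not tested. Low counts limit what can be said of Fgf8, Fgf3, Fgf20, Fgf21, Fgfr2 and Fgfr4, whose counts were at most 93 in any library. The part of depth in these counts was not tested.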
